A study of Mus musculus with 24 samples.

Results

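The genes described are 42 genes of fatty acid oxidation, ketogenesis and the PPARA program, chosen by symbol, of which 41 were measured among 22180 genes. A gene was read from a probe set that the platform annotation gives 1 symbol, the one of highest mean where there were several. The long-chain acyl-CoA synthetase Acsl1, the other listed gene, had no such probe set and was not analysed here. By role the 41 genes were 1 regulator (Ppara), 5 genes of the carnitine shuttle and its malonyl-CoA control, 10 of mitochondrial beta-oxidation, 3 of electron transfer, 2 ketogenic genes, 10 peroxisomal genes, 5 of uptake, binding and activation, 3 acyl-CoA thioesterases and 2 other PPARA targets.

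Liver cells burn fatty acids in fasting. Fatty acids are activated to acyl-CoA, long chains enter mitochondria through the carnitine shuttle, and beta-oxidation shortens them to acetyl-CoA, part of which leaves the liver as ketone bodies, while peroxisomes shorten very long and branched chains. PPARA is a nuclear receptor that binds fatty acids and, paired with RXR, activates genes of all these steps. Glucagon is the hormone of fasting and acts in hepatocytes through cAMP, whereas insulin signals feeding.

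Expression was measured on Affymetrix MoGene 2.0 ST arrays in primary hepatocytes of male C57Bl6J mice, in 8 groups of 3 arrays. The groups crossed an adenoviral short hairpin RNA, shFOXA2.3 against the liver transcription factor FOXA2 or shlacZ as its control (multiplicity of infection 5), with 100 nM glucagon or 1 nM insulin and with 2 µM GW4064 or its solvent DMSO. GW4064 is a synthetic agonist of FXR, the nuclear receptor for bile acids, and hormone and compound were given together for 4 h. All groups had an adenovirus and 100 nM dexamethasone in the medium, and no age was given for the mice. The 8 groups were thus shFOXA2.3 with glucagon and GW4064, shFOXA2.3 with glucagon and DMSO, shFOXA2.3 with insulin and GW4064, shFOXA2.3 with insulin and DMSO, and the same 4 treatments with shlacZ. The replicates were experiments 1 to 3, each made from hepatocytes pooled from 3 mice. No group lacked both hormones, so higher under glucagon and lower under insulin cannot be told apart, and rises and falls are those of glucagon relative to insulin.

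Levels are the deposited log2 values, on which 1 unit is a doubling, and a difference is the log2 difference of group means, given with its limma standard error (SE). A gene was called where its p-value, adjusted by Benjamini and Hochberg's method over all 22180 genes, was under 0.05. Array medians lay between 3.21 and 3.28 over all probe sets, and replicates correlated at 0.986 to 0.994 across genes, which are not independent. The median level of 9 hepatocyte markers was 10.15, against 2.78 for 9 macrophage, 3.30 for 8 stellate, 4.78 for 7 endothelial and 3.37 for 5 cholangiocyte markers. Under glucagon and under insulin these medians were 10.14 and 10.16 for hepatocyte, 2.84 and 2.71 for macrophage and 4.79 and 4.77 for endothelial markers. A mean level under 4 was found for 7 of 9 macrophage, 6 of 8 stellate, 3 of 7 endothelial and 3 of 5 cholangiocyte markers. Others were higher, such as Cd68 (macrophage) at 9.12, Dcn (stellate) at 6.17, Cdh5 (endothelial) at 6.94 and Sox9 (cholangiocyte) at 7.18. The endothelial median ranged from 3.94 to 5.67 between arrays. The part of other cells in the results was not tested. In cultures measured in bulk, fewer cells of a type and less RNA per cell cannot be told apart. The hairpin's own target, Foxa2, was lower with shFOXA2.3 than with shlacZ in 12 of 12 pairs, with 5.54, 6.44 and 7.21 (lowest, median and highest of 12 arrays) against 6.07, 6.70 and 7.72, and a mean difference of -0.43 (SE 0.072, adjusted p = 0.0613 in limma). Over the alternatives the Foxa2 call varied, with an adjusted p of 0.0194 with the experiment as a block and 0.00805 without experiment 3, but 0.858 without experiment 1, 1 without experiment 2 and 0.341 with 1 difference per experiment. By experiment the Foxa2 difference was -0.51, -0.66 and -0.12, so it was smallest in experiment 3. The Foxa2 ranges above span both hormones, and Foxa2 was also higher under glucagon than under insulin, by 1.19 (SE 0.072, adjusted p = 2.15e-10 in limma). With DMSO its mean was 7.02 in shFOXA2.3 cells under glucagon, against 6.27 in shlacZ cells under insulin. With GW4064 the same 2 means were 6.90 and 6.14.

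The promoters of Ppara and of the 3 genes of largest hormone difference, Cpt1a, Slc27a2 and Pex11a, are shown because these genes carry the hormone result, 3 of them higher and Pex11a lower under glucagon. The sequences are those of RefSeq (GRCm38.p6), 250 bases before to 50 after the start of the gene, and lie at chr15:85735526-85735825 on the plus strand for Ppara, chr19:3323051-3323350 on the plus strand for Cpt1a, chr2:126552774-126553073 on the plus strand for Slc27a2 and chr7:79743082-79743381 on the minus strand for Pex11a. Capitals mark the nuclear receptor hexamer (AGGTCA on either strand, read as TGACCT on the minus strand) or the core of the cAMP response element (TGACG on either strand, also part of the full element).
Ppara: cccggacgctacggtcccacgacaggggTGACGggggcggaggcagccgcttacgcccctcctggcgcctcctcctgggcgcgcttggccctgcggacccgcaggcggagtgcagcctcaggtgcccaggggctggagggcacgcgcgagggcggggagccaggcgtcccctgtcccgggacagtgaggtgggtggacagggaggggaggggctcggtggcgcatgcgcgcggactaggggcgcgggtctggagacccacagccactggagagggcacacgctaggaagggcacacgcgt
Cpt1a: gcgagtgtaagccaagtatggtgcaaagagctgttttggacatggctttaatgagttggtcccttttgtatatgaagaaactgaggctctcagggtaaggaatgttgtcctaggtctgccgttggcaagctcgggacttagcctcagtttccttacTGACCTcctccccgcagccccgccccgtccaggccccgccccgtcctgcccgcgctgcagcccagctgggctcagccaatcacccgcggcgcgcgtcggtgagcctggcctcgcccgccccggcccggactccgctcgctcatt
Slc27a2: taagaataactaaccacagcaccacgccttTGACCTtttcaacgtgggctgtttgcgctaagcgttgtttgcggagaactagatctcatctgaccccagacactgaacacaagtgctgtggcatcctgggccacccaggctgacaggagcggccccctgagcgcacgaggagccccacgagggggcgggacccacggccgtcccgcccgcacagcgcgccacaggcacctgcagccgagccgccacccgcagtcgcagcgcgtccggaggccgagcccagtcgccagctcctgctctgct
Pex11a: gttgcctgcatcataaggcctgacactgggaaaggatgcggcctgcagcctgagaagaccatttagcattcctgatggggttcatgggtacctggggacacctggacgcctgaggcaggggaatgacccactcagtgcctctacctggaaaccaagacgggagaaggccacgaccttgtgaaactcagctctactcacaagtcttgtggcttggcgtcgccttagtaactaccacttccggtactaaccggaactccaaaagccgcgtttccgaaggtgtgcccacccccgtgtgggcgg
The cAMP response element core stood at -222 from the start of Ppara, and the nuclear receptor hexamer on the minus strand at -94 in Cpt1a and at -220 in Slc27a2. The Pex11a window held none of the letters searched. These matches describe the letters and show no binding. The hexamer was in the windows of 7 of 34 matched genes of the set, against 18.13% of all genes by any promoter and 16.26% of 32851 promoters. TGACG was in 8 of 34, against 23.05% of genes and 20.81% of promoters. Of the longer motifs searched on both strands, the full element TGACGTCA was in 0 of 34 windows (1.79% of all promoters), and so was a pair of AGGTCA hexamers in the same orientation 1 base apart (0.04%). GC content was 74.7% in the Ppara window, 62.3% in Cpt1a, 65.3% in Slc27a2 and 57.3% in Pex11a.

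The first comparison asks how the set differs between the fasting and the fed hormone. Averaged over both hairpins and both drug conditions, 10 of the 41 genes were higher under glucagon than under insulin, 1 was lower and 30 were not called, against 7.38% of all genes higher and 8.85% lower. The genes that rose were Cpt1a, Slc27a2, Ehhadh, Ppara, Hadh, Cpt2, Crot, Acaa2, Crat and Acadm, and the gene that fell was Pex11a. Only 4 of them, Cpt1a, Slc27a2, Ehhadh and Pex11a, differed by over 1.5-fold. For Slc27a2 this held on its probe set of highest mean but not on the mean of its probe sets. The called share was 26.8% of the set, against 16.2% of all genes. Of the 36 genes of the set with a mean level of at least 4, however, 30.6% were called, against 34.4% of the 9041 genes at that level. The share of called genes in the set was therefore near the background. These shares of all genes are also the background for the counts by role below, which rest on few genes each. By direction, 10 of the 11 called genes were higher, while over all genes 1636 were higher and 1964 lower. The difference was positive for 35 of the 41 genes with a median of 0.12, against a median of 0.0051 over all genes, and for 32 to 35 of them under the scalings tried. In experiments 1 to 3 taken alone, 34, 31 and 31 of the 41 were positive, against 50.1%, 52.0% and 51.8% of all genes.

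**Figure D1:**
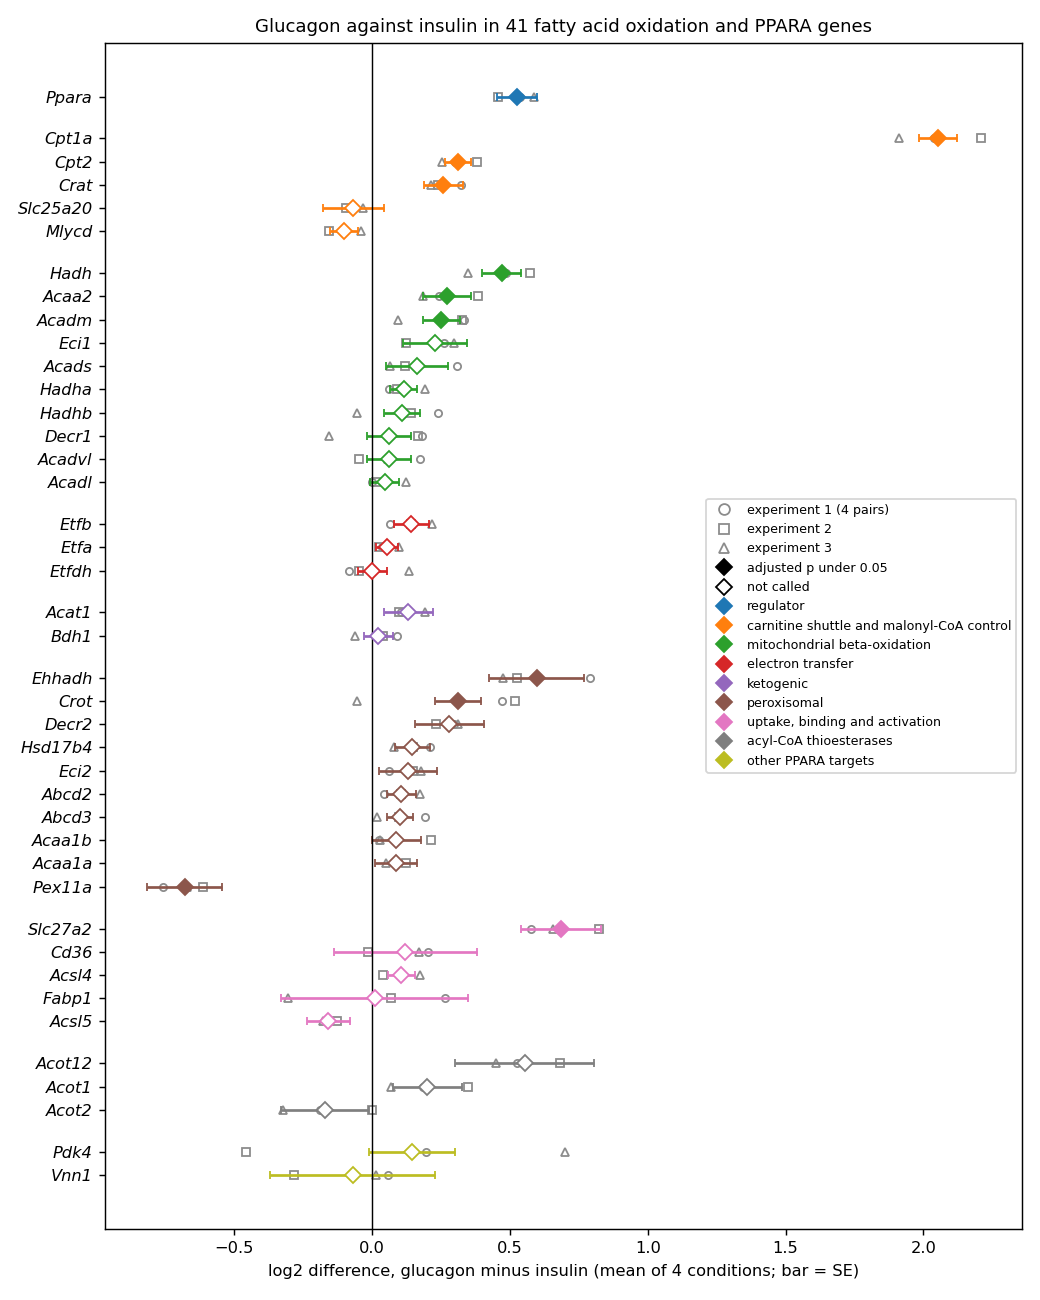
Log2 difference of glucagon minus insulin for the 41 genes, ordered by role (diamonds: mean of 4 conditions with its SE; filled: adjusted p under 0.05; grey symbols: each experiment's mean of 4 pairs). Cpt1a stands at 2.05 and Pex11a at -0.68, and 35 of the 41 differences are above 0.

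Cpt1a, the outer-membrane carnitine palmitoyltransferase that sets the rate of long-chain entry and is inhibited by malonyl-CoA, had the largest difference of the set. With shFOXA2.3 and GW4064 its log2 level was 10.26, 10.19 and 10.30 under glucagon, against 8.46, 8.01 and 8.31 under insulin. With shFOXA2.3 and DMSO it was 10.39, 10.27 and 9.88 under glucagon, against 8.28, 8.04 and 8.34 under insulin. In both conditions the 3 glucagon arrays were above the 3 insulin arrays, and the same held in shlacZ cells. With shlacZ and GW4064 Cpt1a had 10.34, 10.18 and 9.99 under glucagon, against 8.15, 7.99 and 7.99 under insulin. With shlacZ and DMSO it had 10.37, 10.21 and 10.16 under glucagon, against 8.32, 7.97 and 8.05 under insulin. All 12 glucagon arrays were above all 12 insulin arrays. The averaged difference was 2.05 (SE 0.068, adjusted p = 3.49e-14), which is 4.15-fold, and it was 2.04, 2.21 and 1.91 in experiments 1 to 3. Within the 4 conditions it was 1.99 with shFOXA2.3 and GW4064, 1.96 with shFOXA2.3 and DMSO, 2.12 with shlacZ and GW4064 and 2.13 with shlacZ and DMSO, with an SE of 0.14 each.

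Ppara itself had 4.97, 5.51 and 5.65 as the lowest, median and highest level of the 12 glucagon arrays, against 4.62, 4.88 and 5.06 of the 12 insulin arrays. The lowest glucagon array was below the highest insulin array, yet Ppara was higher under glucagon in 12 of 12 pairs, each matched by experiment and condition. The difference was 0.53 (SE 0.072, adjusted p = 1.72e-05), or 1.44-fold, with 0.54, 0.46 and 0.59 in the 3 experiments.

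In the carnitine shuttle, 3 of 5 genes rose and 0 fell. Cpt2, the inner-membrane transferase that returns the acyl group to CoA, had 7.37, 7.58 and 7.82 (lowest, median, highest) under glucagon, against 7.03, 7.26 and 7.47 under insulin, and rose by 0.31 (SE 0.049, adjusted p = 8.3e-05). Its arrays separated within each of the 4 conditions. Crat, the carnitine acetyltransferase, had 5.90, 6.16 and 6.48 under glucagon, against 5.73, 5.95 and 6.18 under insulin. Its difference of 0.26 (SE 0.072, adjusted p = 0.0155) held in 12 of 12 pairs but was not called without experiment 2 or without experiment 3, where the highest adjusted p was 0.0949. Slc25a20, the translocase that carries acylcarnitine across the inner membrane, differed by -0.07 (95% interval -0.30 to 0.16), and Mlycd, which degrades malonyl-CoA, by -0.10 (-0.21 to 0.0016). Neither was called.

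Of the mitochondrial beta-oxidation genes, 3 of 10 rose and 0 fell, and all 10 differences were positive, at 0.045 to 0.47. This called share was near that of all genes with a mean level of at least 4. Hadh, the 3-hydroxyacyl-CoA dehydrogenase for shorter chains, had 8.44, 8.90 and 9.08 under glucagon, against 8.14, 8.37 and 8.54 under insulin. The lowest glucagon array, of shlacZ cells with GW4064 in experiment 3, was below the highest insulin arrays, but 12 of 12 pairs were higher, and the difference was 0.47 (SE 0.070, adjusted p = 4.92e-05). Acaa2, the mitochondrial 3-ketoacyl-CoA thiolase, had 7.54, 7.85 and 8.22 under glucagon, against 7.33, 7.55 and 7.96 under insulin, and rose by 0.27 (SE 0.087, adjusted p = 0.0383). Its groups overlapped, and the call was lost with array median centring and without experiment 1 or 2, up to an adjusted p of 0.402. Acadm, the medium-chain acyl-CoA dehydrogenase, rose by 0.25 (SE 0.067, adjusted p = 0.0117) and was not called without experiment 1 or 2 (up to 0.287). Its difference was 0.33 in experiments 1 and 2 and 0.094 in experiment 3. The other dehydrogenases were not called: Acads, for short chains, differed by 0.16, Acadvl, for very long chains, by 0.060 and Acadl, for long chains, by 0.045. Hadha, a subunit of the trifunctional protein, differed by 0.11 and Eci1, an isomerase for unsaturated chains, by 0.23. Both were called with the experiment as a block (adjusted p = 0.0309 and 0.000253), and Eci1 also with 1 difference per experiment (0.0384). Hadhb, the other subunit of the trifunctional protein, had a mean level under 4, close to the floor. Decr1, the mitochondrial dienoyl-CoA reductase, differed by 0.062.

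The 3 genes of electron transfer, which pass electrons of beta-oxidation to the respiratory chain, and the 2 ketogenic genes had 0 calls in limma, with 1 and 0 genes at an unadjusted p under 0.05. Etfb, a subunit of the electron transfer flavoprotein, differed by 0.14 and was called only with the block (adjusted p = 0.031). Etfa, the other subunit, differed by 0.053. Etfdh, the oxidoreductase they feed, differed by 0.000605. Of the ketogenic genes, Acat1, the mitochondrial acetoacetyl-CoA thiolase, differed by 0.13 (95% interval -0.053 to 0.32). Bdh1, which interconverts acetoacetate and 3-hydroxybutyrate, had levels of 2.19 to 2.62 under glucagon and 2.08 to 2.56 under insulin, below the median of all probe sets (3.25).

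Of the 10 peroxisomal genes, 2 rose, 1 fell and 7 were not called, a called share also near that of all genes with a mean level of at least 4. Ehhadh, the peroxisomal bifunctional enzyme and a classical PPARA target, had 4.96, 5.83 and 6.41 under glucagon, against 4.45, 5.11 and 5.93 under insulin. The groups overlapped while all 12 pairs were higher under glucagon, one of them by 0.0007. The difference was 0.60 (SE 0.17, adjusted p = 0.0196), and 0.79, 0.53 and 0.47 by experiment. Without experiment 1 Ehhadh was not called (adjusted p = 0.358), and the calls over all genes fell from 3600 to 2018. Crot, the carnitine octanoyltransferase that prepares shortened chains for export to mitochondria, had 8.003, 8.40 and 8.63 under glucagon, against 7.80, 8.02 and 8.38 under insulin. Its difference of 0.31 (SE 0.083, adjusted p = 0.0122) came from experiments 1 and 2, with 0.47 and 0.52, against -0.057 in experiment 3. It was not called without experiment 1, without experiment 2 or with 1 difference per experiment, where the adjusted p was 0.136.

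Pex11a, which takes part in peroxisome division and is also a PPARA target, moved the other way. Its lowest, median and highest levels were 5.25, 5.74 and 6.33 under glucagon, against 5.93, 6.50 and 6.93 under insulin. With shFOXA2.3 and DMSO, for example, it had 5.63, 5.25 and 6.33 under glucagon, against 6.70, 5.93 and 6.82 under insulin. The level moved with the experiment, and within each experiment Pex11a was lower under glucagon, in 12 of 12 pairs. Pex11a fell by 0.68 (SE 0.14, adjusted p = 0.00103), to 0.624 of its level under insulin, with -0.76, -0.61 and -0.67 by experiment. Without experiment 1 the adjusted p was 0.0978.

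Other peroxisomal genes were not called. Hsd17b4, the bifunctional enzyme of branched and very long chains, differed by 0.15 and Decr2, the peroxisomal dienoyl-CoA reductase, by 0.28, and both were called with the block (adjusted p = 0.0118 and 0.00368), Decr2 also with 1 difference per experiment (0.0112). Eci2, an enoyl-CoA isomerase, differed by 0.13, and Abcd3, a transporter of the peroxisomal membrane, by 0.10. Abcd2, a related transporter, and the thiolase Acaa1b had mean levels under 4. The thiolase Acaa1a, a close paralog of Acaa1b whose signal may be shared with it on the arrays, differed by 0.086.

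Among the genes of uptake, binding and activation, 1 of 5 rose. Slc27a2, a transporter and acyl-CoA synthetase of very long chains, had 6.84, 7.20 and 7.69 under glucagon, against 6.004, 6.69 and 6.96 under insulin. The lowest glucagon arrays, most of them of experiment 2, overlapped the highest insulin arrays, and within experiments all 12 pairs were higher under glucagon, by at least 0.42. Slc27a2 rose by 0.68 (SE 0.15, adjusted p = 0.00178), or 1.61-fold, with 0.58, 0.82 and 0.66 by experiment. The mean of its probe sets gave a smaller difference, 0.38, still called. The acyl-CoA synthetases Acsl4 and Acsl5 differed by 0.11 and -0.16, and Acsl5, lower in 12 of 12 pairs, was called lower with the block (adjusted p = 0.00114) and without experiment 2 (0.041). Fabp1, the liver fatty acid-binding protein, and Cd36, a fatty acid translocase, had wide intervals, -0.70 to 0.72 and -0.42 to 0.66.

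The 3 acyl-CoA thioesterases had 0 calls in limma, and 1 had an unadjusted p under 0.05. That gene was Acot12, a cytosolic acetyl-CoA hydrolase, with 7.68, 8.70 and 9.03 under glucagon, against 6.72, 8.23 and 8.47 under insulin. Acot12 was higher under glucagon in 12 of 12 pairs, by at least 0.30, and its mean difference of 0.55 was larger than that of Ppara. Its adjusted p was 0.172, and 5.87e-07 with the experiment as a block, 0.00229 with 1 difference per experiment and 0.000349 without experiment 2. Its level in experiment 2 averaged 7.42, against 8.59 and 8.54 in experiments 1 and 3. Acot2, the mitochondrial long-chain thioesterase, differed by -0.17 and was called lower only with the block (adjusted p = 0.025), while Acot1, its close paralog in the cytosol, had a mean level under 4. Of the other PPARA targets, Pdk4, the kinase that restrains pyruvate oxidation, differed by 0.14 and Vnn1, a pantetheinase, by -0.072, and neither was called. The Pdk4 difference was 0.19, -0.46 and 0.70 in experiments 1 to 3, with a different sign in experiment 2, and without that experiment Pdk4 was called higher, by 0.45 (adjusted p = 0.0296).

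**Figure D2:**
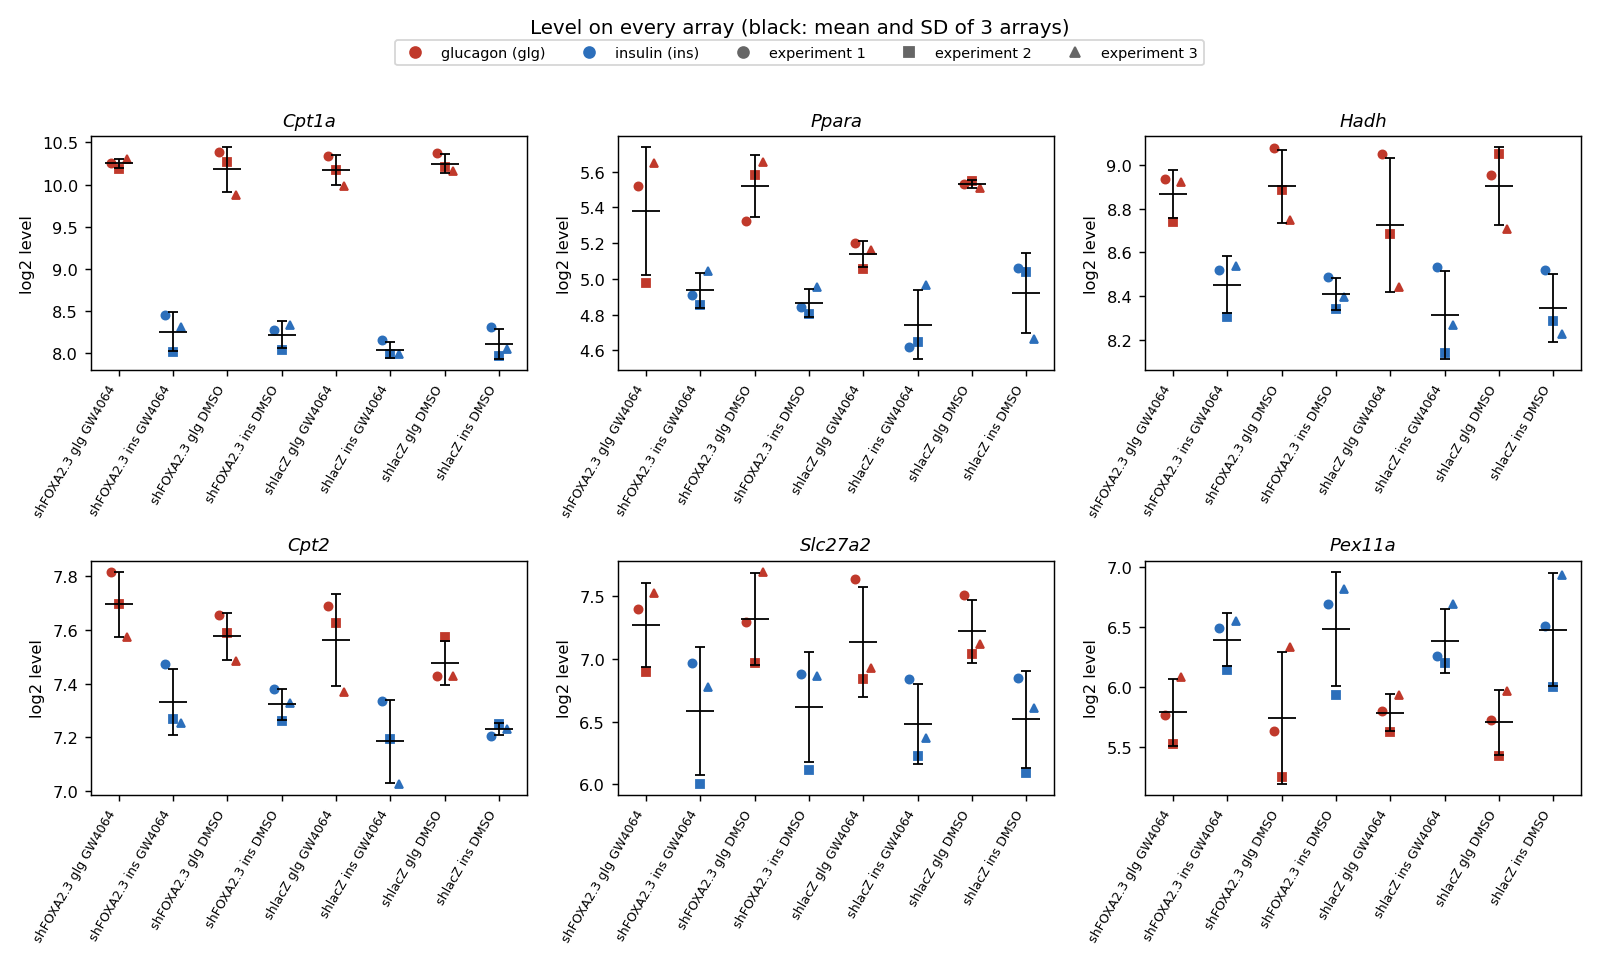
Log2 level of Cpt1a, Ppara, Hadh, Cpt2, Slc27a2 and Pex11a on each of the 24 arrays, by group (red: glucagon; blue: insulin; symbols: experiments 1 to 3; black: mean and SD of 3 arrays). The Cpt1a arrays form separate bands, while the other genes show smaller shifts, downwards for Pex11a.

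With the experiment as a block the count for the averaged comparison was 19 of 41, 16 higher and 3 lower, against 24.6% of all genes. The genes added were Hadha, Eci1, Etfb, Hsd17b4, Decr2 and Acot12 as higher and Acsl5 and Acot2 as lower. With 1 difference per experiment, Eci1, Decr2 and Acot12 were called too, and the other 5 were not, at adjusted p of 0.0708 to 0.216. Without experiment 1 the count was 6. Calls over all genes fell too, from 3600 to 2018 without experiment 1 and to 2216 without experiment 2, but were 3610 without experiment 3. Ppara, Cpt1a, Cpt2, Hadh and Slc27a2 were called under all 10 alternatives.

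Within single conditions, where 3 arrays are set against 3, fewer genes passed. With shFOXA2.3 and GW4064, 2 genes were called (Cpt1a and Cpt2), against 3.49% of all genes. With shFOXA2.3 and DMSO they were 3 (Ppara, Cpt1a and Hadh), against 4.79%. With shlacZ and GW4064 they were 2 (Cpt1a and Cpt2), against 3.09%. With shlacZ and DMSO they were 3 (Ppara, Cpt1a and Hadh), against 4.68%. A gene called in DMSO and not in GW4064 is not shown to differ between them, and the tests of that difference follow. Without experiment 1 Cpt1a alone was called in each condition. The same held without experiment 2, except that Acot12 was also called with shFOXA2.3 and DMSO. Without experiment 3 Cpt1a alone was called with shlacZ and GW4064. With the block the counts were 8, 12, 6 and 11 in the same order of conditions, against 9.14%, 11.3%, 8.41% and 11.2% of all genes.

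The second comparison asks whether the FXR agonist alters the set. GW4064 against DMSO gave 0 limma calls among the 41 genes, against 0.00902% of all genes, and 1 gene of the set had an unadjusted p under 0.05. Nr0b2, a classical FXR target outside the set with a mean level under 4, near the floor, was higher with GW4064 by 0.53 (SE 0.081, adjusted p = 0.0337). It was not called without experiment 1 or without experiment 2, when 0 genes of the whole table were called. Nor was it called with quantile normalization (0.0503) or 1 difference per experiment (0.0991). Abcb11, another FXR target outside the set, differed by 0.20 (95% interval -0.23 to 0.63) and was not called. No gene of the set differed by more than 0.2, and the 95% intervals of all 41 lay within 2-fold in either direction. For Cpt1a the difference was -0.0094 (95% interval -0.15 to 0.13).

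The gene with that unadjusted p was Ppara, at -0.16 (unadjusted p = 0.0383, adjusted p = 1). Under glucagon its levels with GW4064 were 5.52, 4.97 and 5.65 in shFOXA2.3 cells, against 5.33, 5.58 and 5.65 with DMSO. In shlacZ cells they were 5.20, 5.06 and 5.16 with GW4064, against 5.53, 5.55 and 5.51 with DMSO. The shlacZ arrays did not overlap, and the shFOXA2.3 arrays did. Averaged over both hairpins, Ppara differed by -0.27 with GW4064 under glucagon (SE 0.10, unadjusted p = 0.0171, adjusted p = 1) and by -0.054 under insulin. Within a hormone, 0 genes of the set were called by limma, against 0% of all genes, with 2 at an unadjusted p under 0.05 under glucagon (Ppara and Mlycd) and 1 under insulin (Bdh1).

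The third comparison asks whether the hairpin against FOXA2 alters the set. shFOXA2.3 against shlacZ gave 0 limma calls among the 41 genes, against 0.00902% of all genes, with 2 at an unadjusted p under 0.05. These were Cpt2, at 0.12 (unadjusted p = 0.0244, adjusted p = 0.738), and Acat1, at 0.19 (unadjusted p = 0.0474, adjusted p = 0.792). For Cpt1a the difference was 0.085 (95% interval -0.058 to 0.23) and for Ppara 0.092 (-0.058 to 0.24). No difference of the 41 was larger than 0.2, and all 95% intervals lay within 2-fold. Under glucagon and under insulin taken alone, 0 genes of the set were called by limma, against 0% and 0.00451% of all genes, with 1 at an unadjusted p under 0.05 each.

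The signs of the hairpin differences were uneven, with 33 of 41 positive and a median of 0.052, against a median of 0.0044 over all genes. Among genes with a mean level of at least 4 the medians were 0.053 for the 36 genes of the set and 0.027 for all. In experiment 3, 38 of the 41 differences were positive with a median of 0.11, whereas in experiments 1 and 2 these were 18 and 20 of 41 with medians of -0.0095 and -0.0013. Over all genes 50.3% were positive in experiment 3, and 51.2% and 53.0% in experiments 1 and 2. In experiment 3 the median was 0.0008 over all genes and 0.035 over those with a mean level of at least 4. Without experiment 3, 22 of 41 differences were positive with a median of 0.014. With quantile normalization of all 3 experiments they were 27 of 41, with a median of 0.033. Experiment 3 was also the one in which Foxa2 differed least between the hairpins, at -0.12. The part of that experiment's other features in the shift was not tested.

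**Figure D3:**
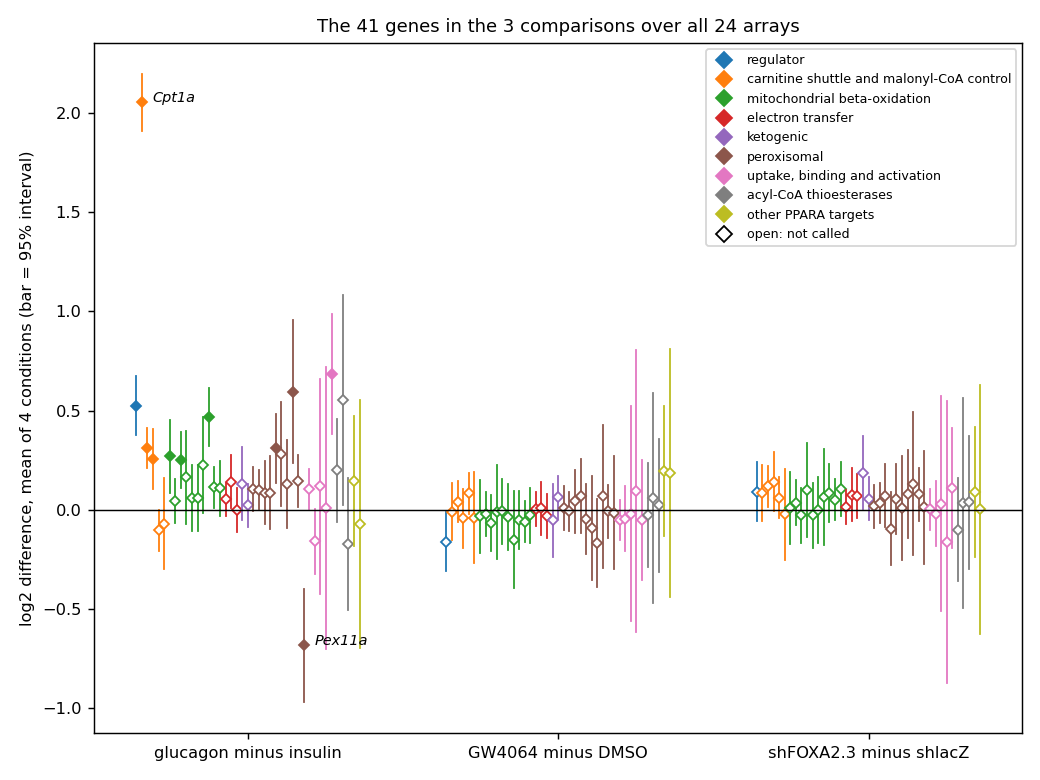
Log2 differences of the 41 genes with 95% intervals, for the hormone (glucagon minus insulin), the drug (GW4064 minus DMSO) and the hairpin (shFOXA2.3 minus shlacZ), each a mean of 4 conditions and coloured by role (filled: called). Called genes appear for the hormone alone, and the drug and hairpin differences all lie within 0.2 of 0.

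Whether drug or hairpin changed the response to glucagon was tested as a difference of differences. The glucagon response differed between GW4064 and DMSO for 0 of 41 genes in limma, against 0% of all genes called. At an unadjusted p under 0.05 there was 1 gene, Mlycd (0.23, unadjusted p = 0.032, adjusted p = 1), whose value changed sign in experiment 2. Between shFOXA2.3 and shlacZ the response also differed for 0 of 41 genes, against 0% of all genes called, with 0 at an unadjusted p under 0.05. For Cpt1a the response with GW4064 minus that with DMSO was 0.012 (95% interval -0.27 to 0.30), and that with shFOXA2.3 minus that with shlacZ was -0.15 (-0.44 to 0.13). For Ppara the values were -0.21 (-0.51 to 0.090) and 0.048 (-0.25 to 0.35), and for Pex11a 0.16 (-0.41 to 0.73) and 0.013 (-0.56 to 0.58). Of these genes Cpt1a and Ppara had the narrower intervals.

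Some genes varied more between experiments than with hormone, drug or hairpin. The mean level over the 8 arrays of an experiment ranged by over 1 between experiments for 4 of the 41 genes. It did so for 332 of the 9041 genes with a mean level of at least 4, and for 365 of all 22180 genes. For Fabp1 the experiment means were 3.93, 4.11 and 5.51, for Vnn1 6.77, 6.37 and 5.27, for Cd36 6.42, 5.06 and 5.55, and for Acot12 8.59, 7.42 and 8.54. Fabp1 was highest in experiment 3, where Vnn1 was lowest, so the experiments did not order these genes alike. The median range over the set was 0.27, against 0.25 for genes with a mean level of at least 4, a value near it.

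**Figure D4:**
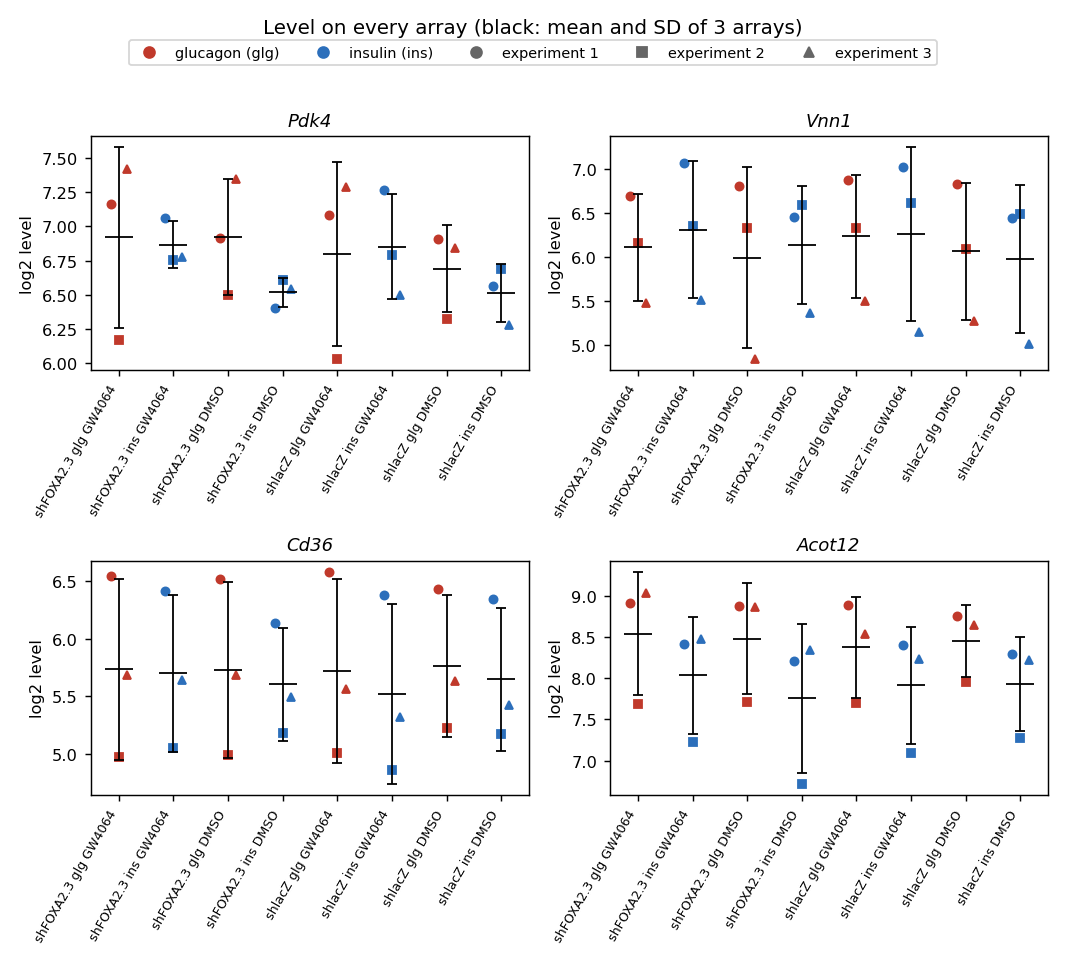
Log2 level of Pdk4, Vnn1, Cd36 and Acot12 on each of the 24 arrays, by group (red: glucagon; blue: insulin; symbols: experiments 1 to 3; black: mean and SD of 3 arrays). The experiments lie at different levels, highest in experiment 1 for Cd36 and lowest in experiment 2 for Acot12, and in Acot12 each red symbol lies above the blue one of its experiment and condition.

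Of 68 other genes of the pathway, 59 were measured, and 12 were higher and 4 lower under glucagon, or 27.1%, against 16.2% of all genes. Of the 41 with a mean level of at least 4, 34.1% were called, against 34.4% of all genes at that level, so their share was near the background. With the block 19 were higher and 7 lower, or 44.1%, against 24.6% of all genes, and at that level 48.8%, against 51.2%. Ppargc1a, the coactivator of PPARA and of mitochondrial genes, had the largest difference, with 6.12, 6.79 and 8.64 (lowest, median, highest) under glucagon, against 2.61, 3.11 and 3.91 under insulin. The 12 arrays of each hormone were separate, and the difference was 3.76 (SE 0.27, adjusted p = 3.85e-09). Hacl1, the peroxisomal 2-hydroxyacyl-CoA lyase, rose by 1.27 (adjusted p = 5.77e-07), Phyh, the phytanoyl-CoA hydroxylase, by 0.54 (adjusted p = 0.00035), and Scp2, which holds a thiolase for branched chains, by 0.79 (adjusted p = 0.00885). Pex19, which imports peroxisomal membrane proteins, rose by 0.39 and the receptor Ppard by 0.29. The mitochondrial deacetylase Sirt3 rose by 0.31, at a mean level of 3.31, close to the floor.

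Other called genes of the pathway moved in both directions, lipid droplet genes among them. Angptl4, a secreted inhibitor of lipoprotein lipase, had 7.64, 7.84 and 8.08 under glucagon, against 9.21, 9.76 and 9.998 under insulin, with no overlap, and fell by 1.84 (SE 0.089, adjusted p = 7.02e-12). Plin2, the lipid droplet coat protein, fell by 0.82 (adjusted p = 0.000249), while Hilpda, a lipid droplet protein that inhibits the lipase ATGL, rose by 0.79 (adjusted p = 7.99e-06). Slc16a6, a hepatic transporter of ketone bodies in zebrafish, fell by 1.23 (adjusted p = 2.1e-05), and was lower in 12 of 12 pairs. Nr1h4, the gene of FXR itself, fell by 0.48 (adjusted p = 0.0184), with -0.54, 0.017 and -0.91 in experiments 1 to 3. The other 4 called genes rose by 0.23 to 0.29.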

How the data were processed

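The authors deposited log2 expression values for 24 arrays and 41345 probe sets. The log2 scale was inferred from their range, 1.46 to 13.5, and their normalization is not given in the sources used here. Per the series' design text, GeneSpring was used, technical replicates were pooled within a sample and cells of 3 mice were pooled per experiment. Of the probe sets, 23521 had 1 symbol, 1814 several and 16010 none, and 23328 gene numbers matched the RefSeq gene table (GRCm38.p6). For 1082 genes with several probe sets, that of the highest mean was used.

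Differences were tested in limma 3.58.1 (R 4.3.3, lmFit and eBayes) with 8 group means, 24 arrays and 16 residual degrees of freedom, and the Benjamini-Hochberg adjustment ran over 22180 genes at a threshold of 0.05. In an average of 4 conditions, the 4 pairs made in 1 experiment counted as separate. In this fit p-values rest on the spread of the 3 arrays in each group, 1 per experiment. They do not measure the spread of a difference between experiments, which the alternative with 1 difference per experiment uses. The number of arrays limits the precision, with a median SE of 0.13 for 3 against 3 arrays and 0.063 for an average. The labels number the experiments, and per the design text cells of 3 mice were pooled for each. Deviations from group means correlated in all 84 same-experiment pairs (r = 0.374 to 0.698), so the experiment was tried as a block. Alternatives also covered array median centring, quantile normalization, a mean level of at least 4, the mean of probe sets, an intensity trend with robust fitting, leaving out each experiment and 1 difference per experiment. On simulated data with 200 of 22180 genes changed between the hormones, 91% of changes of 0.5 and 100% of changes of 1 on the log2 scale were recovered, with 12 false calls. The simulated noise was independent between arrays, without a shared experiment, and far fewer genes changed than were called in the data. These rates therefore need not hold for the data.

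The genes and lists were chosen with earlier results of these data known. Any gene of the set could be named, with values by array for Ppara and the 10 largest called hormone differences, and of the other pathway genes at most the 12 called ones of largest difference. Motifs were searched in RefSeq promoters. Plots used Python 3.11.15 and matplotlib 3.10.9.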

Additional observations from a re-analysis of the deposited data

How the results depend on the processing

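For the averaged hormone comparison, the count of called genes in the set was 11. It was 19 with the experiment as a block, and 6 to 10 when 1 experiment was left out, with 6 without experiment 1. Under the other alternatives it was 10 to 13. Calls over all genes moved as well, from 3600 in the main fit to 5454 with the block. They were 2018 without experiment 1, 2216 without experiment 2 and 3610 without experiment 3. With the block the counts in single conditions were 8 (shFOXA2.3 and GW4064), 12 (shFOXA2.3 and DMSO), 6 (shlacZ and GW4064) and 11 (shlacZ and DMSO), instead of 2, 3, 2 and 3. With 1 difference per experiment they were 5, 7, 3 and 7. With array median centring, and also with an intensity trend, they were 1 in both GW4064 conditions. When 1 experiment was left out they were 1 to 2, 1 to 3, 1 and 1 to 2 in the same order of conditions. The drug, hairpin and interaction counts were 0 under every alternative run, and the block changed no call of the set in these comparisons. No called difference of the set changed sign. Over all genes the median hormone difference was between -0.0175 and 0.0051 under the scalings tried. The 5 genes with a mean level under 4 (Hadhb, Bdh1, Acaa1b, Acot1 and Abcd2) lay near the array floor, which limits what their values can show.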
